A study of Mus musculus with 2 samples.

Results

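Cholesterol synthesis was followed through 8 genes in brown adipose tissue, which makes heat from lipid. The members, chosen by symbol, were the pathway enzymes Hmgcs1, Idi1, Fdft1, Sqle, Lss and Dhcr7 and the regulators Srebf2 and Insig1. None of the 8 encodes an uptake protein, and uptake genes are given further on from a separate list. They made up 8 of the 10778 gene symbols and 9 of the 14189 transcript rows of the deposited table, and all 8 passed the filter of a mean of at least 1 FPKM (sequenced fragments divided by transcript length and library size), as did 9870 genes in all. Male C57BL6/J mice aged 8 to 12 weeks ate for 10 days a high-fat diet (60% of kcal), with SML given intraperitoneally at 5 mg per kg body weight (SML) or without it (HFD control). SML is the labels' abbreviation, and the series title names sesaminol, a lignan of sesame. There was 1 library per group, so no test between conditions was possible and every difference compares 2 libraries. The sources used here do not give the number of animals behind each library, so the spread between animals is unknown.

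Mammalian cells build cholesterol from acetyl-CoA through mevalonate, isoprene units and squalene, which is closed into the first sterol and trimmed to cholesterol. The pathway is held in balance by its product: when sterols in the endoplasmic reticulum run low, the protein of Srebf2 travels to the Golgi, is cut by proteases and enters the nucleus to raise transcription of nearly all of these enzymes, and when sterols are plentiful the protein of Insig1 holds it back. Insig1 is itself a target of this factor. Brown fat also takes up cholesterol from lipoproteins.

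Of the 8 members, 1 was lower in the SML library by the 1.5-fold size rule, 0 were higher and 7 were neither. The rule was applied to log2(FPKM + 1), SML minus HFD control, with the transcript rows of a symbol summed. It was met in the lower direction by 5.74% of all 9870 genes and in the higher direction by 5.45%. The member past it was Dhcr7, which encodes the enzyme of a final reduction to cholesterol. The median difference of the members was 0.08 on this scale, against 0 for all genes kept. The summed FPKM of the members was 179 in SML and 154 in HFD control, and Hmgcs1 and Insig1 together with Fdft1 held most of it in both libraries.

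The ratio of counts, SML over HFD control, with its 95% exact interval gave a second view of the members. The interval lay above 1 for 4 members, Hmgcs1, Idi1, Fdft1 and Insig1, and below 1 for 2, Sqle and Dhcr7. Among all genes kept it lay above 1 for 25.1% and below 1 for 23.5%. Such intervals describe the counting of fragments alone; differences among animals and PCR duplicates add error that is not in them.

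The libraries held 8503628 fragments in SML and 12001476 in HFD control within the table, as read from the steps of low counts. Brown fat markers were high in both, with a summed FPKM of 66331 in SML and 76755.5 in HFD control. By the size rule, 2 of 13 kept were higher (Dio2 and Zic1) and 0 lower, while the count interval lay above 1 for 6 and below 1 for 5. For this and the marker lists below, the shares among all genes kept were 5.45% higher and 5.74% lower. The interval lay above 1 for 25.1% of all genes kept and below 1 for 23.5%. Prdm16, listed but under the filter, was at 0.41 FPKM in SML and 1.42 FPKM in HFD control, with a ratio of 0.291 (0.192 to 0.423). Markers of other tissues differed. All 19 skeletal muscle markers kept were lower in SML, with a summed FPKM of 309 in SML and 4586 in HFD control, led by Acta1, skeletal actin, at 52.5 FPKM in SML and 881 FPKM in HFD control. Hepatocyte markers were lower for 7 of 9, with 94.9 FPKM in SML and 135 FPKM in HFD control. Of the 14 listed, 7, Alb among them, were at 0 in SML, against 1 in HFD control. Cps1 was at 0 in both libraries, and Fgb, Fga and Fgg had only 4, 7 and 6 fragments in HFD control. The most abundant hepatocyte marker, Cyp2e1, a cytochrome P450, went the other way and made up most of the sum in SML. It was at 52.8 FPKM in SML and 42.6 FPKM in HFD control with a ratio of 1.24 (1.12 to 1.36). Macrophage markers were lower for 7 of 12 and higher for 1 (295 FPKM in SML, 478 FPKM in HFD control), endothelial markers lower for 4 of 10 (370 FPKM in SML, 586 FPKM in HFD control) and red cell markers lower for 4 of 4 (1012 FPKM in SML, 1974 FPKM in HFD control). In bulk tissue, fewer cells of a type and less RNA per cell cannot be told apart, and the part of these other cells in the differences below was not tested.

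**Figure D1:**
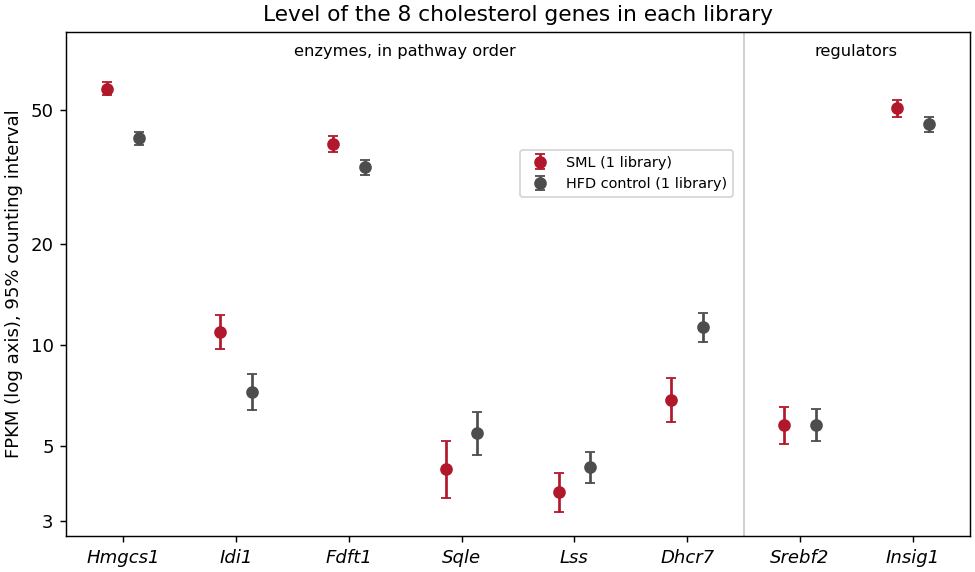
FPKM of each member in the SML library (left point of each pair) and the HFD control library (right point) on a log axis, with 95% Poisson intervals for counting error; enzymes stand in pathway order and regulators at the right. Hmgcs1, Insig1 and Fdft1 are the abundant members in both libraries, and Dhcr7 is the member with the lowest SML value relative to HFD control.

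By level, the members formed an abundant group and a scarce group. In SML the order was Hmgcs1 (57.8 FPKM), Insig1 (50.5), Fdft1 (39.5), Idi1 (10.9), Dhcr7 (6.85), Srebf2 (5.77), Sqle (4.28) and Lss (3.65). In HFD control it was Insig1 (45.2 FPKM), Hmgcs1 (41.1), Fdft1 (33.7), Dhcr7 (11.3), Idi1 (7.24), Srebf2 (5.79), Sqle (5.46) and Lss (4.33). Hmgcs1 and Insig1 changed places between the libraries, and so did Idi1 and Dhcr7, with Dhcr7 at 0.627 times the FPKM of Idi1 in SML and 1.56 times in HFD control. The counting intervals of neighbours overlapped for Dhcr7 with Srebf2, Srebf2 with Sqle and Sqle with Lss in SML, and for Insig1 with Hmgcs1, Idi1 with Srebf2, Srebf2 with Sqle and Sqle with Lss in HFD control. By mean FPKM, Hmgcs1 lay at percentile 83.4 and Lss at percentile 32.0 of all genes kept.

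Srebf2 (chr15:82147269-82204960), the gene of the transcription factor that drives the pathway, stood at 5.77 FPKM in SML and 5.79 FPKM in HFD control, from 247 fragments in SML and 337 in HFD control. The count ratio was 0.996 (0.842 to 1.18), so a difference at the transcript level within these bounds was not detectable. Srebf1, whose products act mainly on fatty acid synthesis, was 17.2 times as abundant as Srebf2 in SML and 14.6 times in HFD control, standing at 99.1 FPKM in SML and 84.8 FPKM in HFD control. Insig1 (chr5:28071412-28078662), which retains the factor in the endoplasmic reticulum and is a target of it, stood at 50.5 FPKM in SML and 45.2 FPKM in HFD control, with a count ratio of 1.12 (1.03 to 1.20). Insig2, its paralog, stood at 10.7 FPKM in SML and 8.70 FPKM in HFD control, so that Insig1 was 4.71 times as abundant as Insig2 in SML and 5.20 times in HFD control.

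Promoter sequence is shown for 4 members, the highest and the lowest by difference (Idi1 and Dhcr7), the most abundant enzyme (Hmgcs1) and the regulator that is also a target (Insig1). The table of promoters, from RefSeq on GRCm38.p6, held windows for 6 of the 8 members, Fdft1 and Sqle being the others. Each window runs from 250 bases before to 50 bases after the start of the gene, and the first 250 bases are printed, on the gene's strand (plus in all 4). The start site of each printed window was the start of the gene in the deposited table. Capitals mark TCACNCCAC (the core of a sterol regulatory element), CCAAT (bound by NF-Y), GGGCGG (bound by Sp1) and CACGTG (an E-box) on either strand; the 4 motifs had no overlaps among the printed matches.
Hmgcs1, chr13:119690101-119690350: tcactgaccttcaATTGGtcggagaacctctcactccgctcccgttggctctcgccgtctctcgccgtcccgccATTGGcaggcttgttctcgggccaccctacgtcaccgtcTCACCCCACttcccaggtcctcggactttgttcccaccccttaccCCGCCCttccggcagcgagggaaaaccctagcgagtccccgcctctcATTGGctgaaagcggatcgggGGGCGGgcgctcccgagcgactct
Idi1, chr13:8885356-8885605: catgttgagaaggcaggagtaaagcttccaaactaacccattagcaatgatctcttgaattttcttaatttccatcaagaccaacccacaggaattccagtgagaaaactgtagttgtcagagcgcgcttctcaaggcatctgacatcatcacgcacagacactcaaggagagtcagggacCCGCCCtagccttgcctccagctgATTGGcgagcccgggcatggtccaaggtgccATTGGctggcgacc
Dhcr7, chr7:143822917-143823166: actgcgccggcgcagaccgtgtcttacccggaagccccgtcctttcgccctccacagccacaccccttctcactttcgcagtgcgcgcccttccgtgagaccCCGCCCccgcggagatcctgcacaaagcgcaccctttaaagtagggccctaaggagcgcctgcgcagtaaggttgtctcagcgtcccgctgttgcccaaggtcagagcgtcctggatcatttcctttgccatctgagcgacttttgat
Insig1, chr5:28071162-28071411: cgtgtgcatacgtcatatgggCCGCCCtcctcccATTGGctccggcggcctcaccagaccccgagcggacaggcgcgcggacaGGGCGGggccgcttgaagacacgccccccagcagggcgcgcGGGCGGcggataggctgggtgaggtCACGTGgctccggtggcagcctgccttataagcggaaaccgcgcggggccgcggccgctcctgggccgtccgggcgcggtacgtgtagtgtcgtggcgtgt

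TCACNCCAC occurred in 1.24% of all 32851 promoter windows, and among the member windows in that of Hmgcs1, where the match began (leftmost base) at -137 from the start site, between CCAAT matches on the minus strand that began at -176 and -45. CCAAT was in 37.4% of all windows and GGGCGG in 35.7%, and the window of Idi1 held 2 CCAAT and 1 GGGCGG. That of Insig1 held 1 CCAAT, 3 GGGCGG and an E-box, which 7.15% of all windows contain. The Dhcr7 window at the table's start held 1 GGGCGG and 0 CCAAT, while the RefSeq window at chr7:143829964-143830263, a start further into the gene, held 3 GGGCGG and 2 CCAAT. Another RefSeq window of Dhcr7, at chr7:143823149-143823448, held an E-box and 0 of the other 3 motifs. The windows of Srebf2 and Lss each held 1 CCAAT, with 5 GGGCGG for Srebf2 and 2 for Lss. Only the motifs as written were searched, so variant forms of a sterol regulatory element in the other windows were not counted. A match of letters is a description of the window and says nothing of binding in this tissue.

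Hmgcs1 (chr13:119690351-119708260) encodes the cytosolic synthase that makes HMG-CoA, the precursor of mevalonate, and its summed level was 57.8 FPKM in SML and 41.1 FPKM in HFD control. The count ratio was 1.40 (1.31 to 1.49), from 1881 fragments in SML and 1826 in HFD control. On the log2(FPKM + 1) scale the difference was 0.48, at percentile 91.2 of all genes kept and under the size rule.

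Hmgcs1 was the member with more than 1 transcript row, and its rows went in opposite directions. The first row (TCONS_00008254) stood at 53.1 FPKM in SML and 32.5 FPKM in HFD control, a count ratio of 1.63 (1.52 to 1.75). The second (TCONS_00008255) stood at 4.67 FPKM in SML and 8.63 FPKM in HFD control, a ratio of 0.541 (0.448 to 0.656). The second row therefore held 8.09% of the gene's FPKM in SML and 21.0% in HFD control. Of 1404 symbols with at least 2 rows kept, 256 (18.2%) had 1 row at least 1.5-fold higher in FPKM and another at least 1.5-fold lower. The table gives both rows the same start and end, and their ratios of scaled count to FPKM, which follow transcript length, were 28.2 and 28.7 in HFD control. The intervals of single rows do not cover the error of dividing fragments between such similar transcripts. With the most abundant row alone in place of the sum, the difference of Hmgcs1 was 0.69 and past the size rule.

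**Figure D2:**
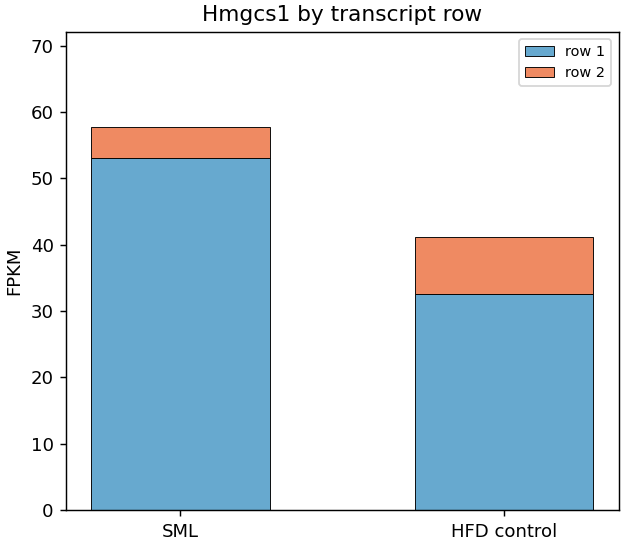
FPKM of Hmgcs1 in the SML library (left bar) and the HFD control library (right bar), stacked by transcript row. Row 1 is the taller part in both bars, and row 2 takes 8.09% of the SML bar and 21.0% of the HFD control bar.

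Idi1 (chr13:8885606-8892396), the isomerase that interconverts the isoprene units from which squalene is built, was at 10.9 FPKM in SML and 7.24 FPKM in HFD control. Its count ratio of 1.51 (1.27 to 1.79) was the highest among the members, and came from 286 fragments in SML and 258 in HFD control. The log2(FPKM + 1) difference of 0.53 was just under the size rule, because the added 1 weighs on a gene at this level, and it was 0.59 and past the rule with 0.1 added instead. Fdft1 (chr14:63122462-63179578), squalene synthase, the first enzyme committed to sterols, was at 39.5 FPKM in SML and 33.7 FPKM in HFD control, with a ratio of 1.17 (1.09 to 1.26). The span of this row in the table also takes in Ctsb, a cathepsin gene on the other strand whose end overlaps that of Fdft1 in GENCODE M21. Ctsb was at 366 FPKM in SML and 469 FPKM in HFD control with a ratio of 0.779 (0.764 to 0.795), and the sources used here do not say whether counting was by strand, so reads from the overlap could not be assigned with certainty.

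Sqle (chr15:59315092-59331193), the squalene epoxidase, a controlled step of the sterol stretch of the pathway, was at 4.28 FPKM in SML and 5.46 FPKM in HFD control. Its ratio of 0.782 (0.610 to 0.997) rested on 107 fragments in SML and 186 in HFD control, the fewest of any member. Lss (chr10:76531605-76562226), which closes the epoxide into lanosterol, was at 3.65 FPKM in SML and 4.33 FPKM in HFD control, with a ratio of 0.843 (0.709 to 1.001). Both were under the size rule, and the interval of Lss included 1. The table row of Lss ends where 4930483K19Rik ends, a gene on the other strand that overlaps Lss in GENCODE M21, so reads from the overlap could not be assigned with certainty here either. The Lss row had a ratio of scaled count to FPKM of 52.0 in HFD control, against 20.8 to 37.1 for the rows of the other members. Fdft1 was 9.22 times as abundant as Sqle in SML and 6.17 times in HFD control.

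Dhcr7 (chr7:143823167-143848410) was at 6.85 FPKM in SML and 11.3 FPKM in HFD control, from 176 fragments in SML and 394 in HFD control. It was 1.65-fold lower in SML (1.38 to 1.98), and its log2 difference of -0.65 lay at percentile 4.60 of all genes kept. It was just past the size rule: with the totals made equal outside the muscle, liver, macrophage and red cell lists, the difference was -0.58, under it. Nsdhl, which takes part in removing the methyl groups of early sterols, had the lowest log2(FPKM + 1) difference of the other enzymes reported here, -0.47, which did not pass the rule. It was at 24.1 FPKM in SML and 33.7 FPKM in HFD control, and its ratio was 0.714 (0.638 to 0.799). With the trend on GC content and transcript length removed, as described further on, the difference was -0.58 for Nsdhl and -0.57 for Dhcr7.

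**Figure D3:**
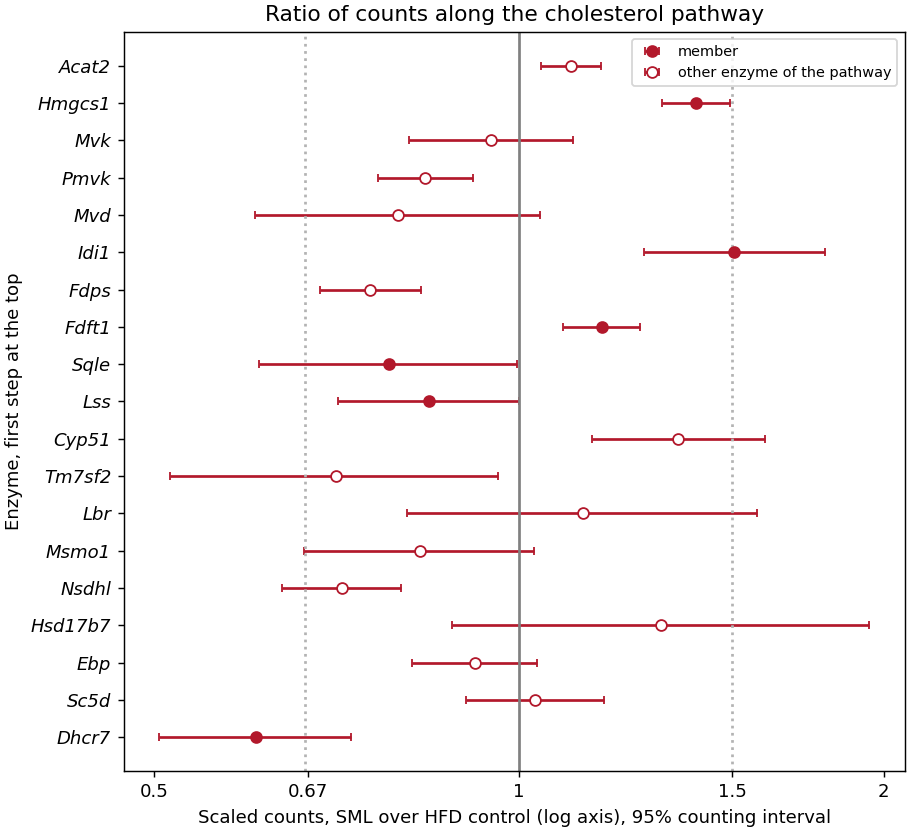
Ratio of scaled counts, SML over HFD control, on a log axis for the 6 member enzymes (filled) and 13 other enzymes (open), in the order of the pathway from top to bottom, with 95% counting intervals; dotted lines mark 1.5-fold. The 3 filled points up to Fdft1 lie above 1 and the 3 after it below 1, while open points lie on both sides in both stretches.

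In the order of the pathway, the 3 member enzymes up to squalene had ratios of 1.17 to 1.51 and the 3 after it 0.607 to 0.843. The other enzymes were mixed in each stretch. Up to squalene, 1 of 5 had a ratio above 1 and 4 below, from 0.755 for Fdps, which makes farnesyl diphosphate, to 1.10 for Acat2, the thiolase of the first step. After squalene, 4 of 8 had a ratio above 1 and 4 below, from 0.707 for Tm7sf2, a sterol reductase, to 1.35 (1.15 to 1.60) for Cyp51, the lanosterol demethylase. The split of the members at squalene was seen after their values were known and was not tested. Over these 13 other enzymes, 0 were higher and 0 were lower by the size rule, against 5.45% higher and 5.74% lower among all genes. Over 13 genes that is not a result about the list. Their median difference was -0.11. The most abundant was Acat2, at 121 FPKM in SML and 109 FPKM in HFD control.

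GC content, a property of the transcripts and not of the pathway, moved with the differences. The genes were divided by it into 4 bins of like size. In bin 1 (31.2% to 46.9% GC) the median difference was 0.20, with 13.1% of genes higher and 2.86% lower. In bin 3 (51.4% to 55.7% GC) it was -0.10, with 2.02% higher and 8.36% lower. The median was 0.01 in bin 2 and -0.08 in bin 4, the bin of highest GC content, so it did not keep falling with GC content. Idi1 (40.9% GC) and Hmgcs1 (43.4%) lay in bin 1, Dhcr7 (52.9%) in bin 3, Insig1 (48.2%), Lss (48.2%), Sqle (49.0%) and Fdft1 (50.9%) in bin 2, and Srebf2 (59.0%) in bin 4. With the trend on GC content and transcript length removed, the differences were 0.28 for Idi1, 0.26 for Hmgcs1, 0.23 for Fdft1 and 0.11 for Insig1. They were -0.57 for Dhcr7, -0.32 for Sqle, -0.24 for Lss and 0.08 for Srebf2. Each kept its sign except Srebf2, and 0 of the 8 were past the size rule. The lengths came from GENCODE M21 and were 741 bases for Idi1, 1251 for Dhcr7 and 2697 for Insig1. The ratios of scaled count to FPKM of these genes in HFD control, which follow transcript length, were closer, at 22.7, 22.3 and 20.8. The GC content and length used may thus not fit the transcripts counted for some members. How far that affects the values with the trend removed was not tested.

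**Figure D4:**
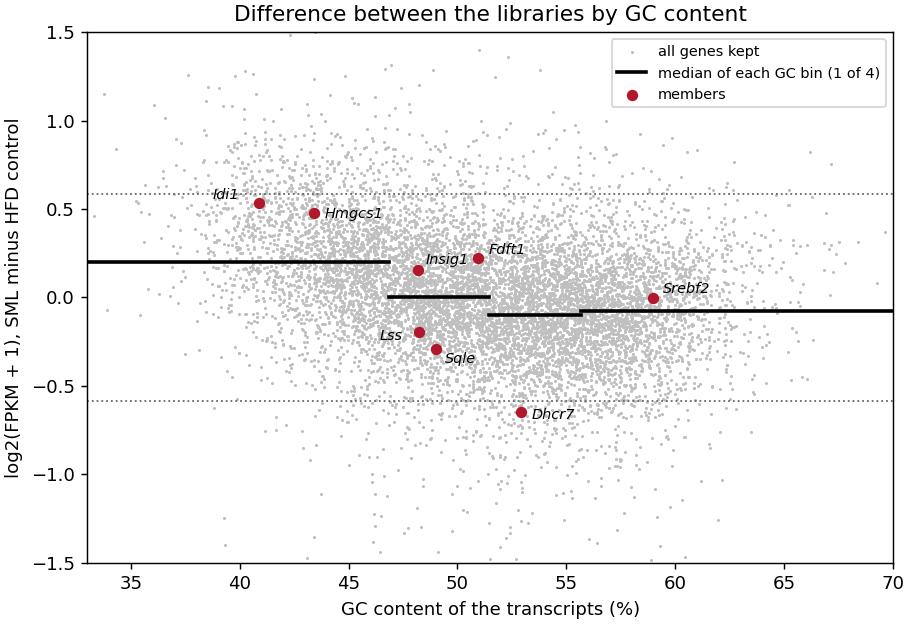
Difference in log2(FPKM + 1), SML minus HFD control, against the GC content of the transcripts for 9524 genes (grey, of which 132 lie outside the frame) and the members (red); black bars are medians of 4 bins of genes by GC content and dotted lines the 1.5-fold rule. Idi1 and Hmgcs1 lie in the bin whose median is 0.20, and Dhcr7 in a bin whose median is -0.10.

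Of 67 other genes of sterol handling, 54 had a row and 52 were kept, of which 1 was higher and 0 were lower by the size rule. Among all genes kept, 5.45% were higher and 5.74% lower, and whether the 52 differed from these shares was not tested. Among 11 regulators of the pathway kept, 0 passed the rule, which beside these shares is not a result about so short a list. Their median difference was 0.17. They ran from -0.18 for Tmem97, a sterol-regulated gene, to 0.38 for Erlin1, a cholesterol-binding membrane protein of the endoplasmic reticulum, which had a ratio of 1.44 (1.06 to 1.95). Scap, the escort of the Srebf2 protein to the Golgi, was at 12.5 FPKM in SML and 13.0 FPKM in HFD control, a ratio of 0.960 (0.853 to 1.08). Mbtps1, the first of its proteases, was at 16.9 FPKM in SML and 18.3 FPKM in HFD control. Mbtps2, the other protease, was under the filter, listed at 0 FPKM in SML and 0.47 FPKM in HFD control. Its counts went the other way, with 53 fragments in SML and 29 in HFD control and a ratio of 2.48 (1.55 to 4.05).

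Among uptake and lysosomal genes, 0 of 9 kept were past the rule, against 5.45% higher and 5.74% lower among all genes, which over 9 genes is not a result about the list. Their median difference was 0.02, and the count interval lay above 1 for 2 of the 9, against 25.1% of all genes kept. By difference, Vldlr, a lipoprotein receptor, was the highest (0.31), at 15.2 FPKM in SML and 12.1 FPKM in HFD control, with a ratio of 1.26 (1.17 to 1.37). Npc1, which moves cholesterol across the lysosomal membrane, had the lowest difference (-0.06), at 9.67 FPKM in SML and 10.2 FPKM in HFD control with a ratio of 0.951 (0.844 to 1.07). Npc2, which binds cholesterol inside the lysosome, was at 185 FPKM in both libraries.

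Efflux, esterification and oxysterol genes also had 0 of 10 past the rule, with a median of 0.07. Against 5.45% higher and 5.74% lower among all genes, that is not a result about 10 genes. Abca1, the exporter of cholesterol to apolipoproteins, had a ratio of 1.39 (1.21 to 1.58) at 4.65 FPKM in SML and 3.35 FPKM in HFD control. Apoe, the apolipoprotein, stood at 1697 FPKM in SML and 1370 FPKM in HFD control, and Abcg1, another exporter, at 1.27 FPKM in SML and 1.59 FPKM in HFD control. The isoprenoid branch, which diverts intermediates to dolichol, ubiquinone and protein prenylation, held the gene that was higher. Nus1, a subunit of the dolichol-making prenyltransferase, was at 10.4 FPKM in SML and 6.13 FPKM in HFD control, 1.70-fold higher (1.48 to 1.96), with 42.3% GC and a difference of 0.40 once the GC and length trend was removed. Fnta, the shared subunit of the prenyltransferases for proteins, had the lowest difference of the 9 kept (-0.37), at 55.6 FPKM in SML and 72.1 FPKM in HFD control. Scap, Mbtps1, Mbtps2, Insig2, Fdps, Tm7sf2, Ctsb, Alb, Cps1, Fgb, Fga, Fgg, Prdm16, Dio2 and Zic1 are named although the rule for named genes does not pick them. That choice was made with their values in view.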

How the data were processed

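Poly(A) RNA of 1 SML and 1 HFD control library was prepared with TruSeq kits, per the labels' protocols. CASAVA 1.8 and Cufflinks are named with the build mm10, per the submitters' processing notes; no aligner, annotation or filter is named in the sources used here. The authors deposited FPKM per assembled transcript, and a column headed count that is a scaled signal and not raw counts. Its low values rose in steps of 0.866 (SML) and 0.637 (HFD control), of which 90.4% of 783 and 90.7% of 538 values up to 20 steps were whole within 0.1; the step was taken as 1 fragment.

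Rows were summed per symbol, and 17 symbols that a spreadsheet had turned into dates were left out. Differences were log2(FPKM + 1), which understates the change of low genes, with a 1.5-fold rule and a minimum mean of 1 FPKM. Count ratios carry 95% exact conditional binomial intervals. GC content and length were medians over GENCODE M21 coding transcripts, with a quadratic least-squares trend. Table starts were turned to 1-based positions on mm10. The procedure was tested on simulated fragments (Python 3.11.15, scipy 1.17.1). Members, lists, the motifs, the alternatives and the rule for named genes (all members; of each pathway list those past the size rule, both extremes and the most abundant; of each marker list the most abundant) were chosen with earlier results of these data known. Some genes of the pathway lists are not reported here, and counts are over the rest. Over 2 libraries no likeness of pattern between genes can be measured.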

Additional observations from a re-analysis of the deposited data

How the results depend on the processing

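Every choice below was compared with the values given above, 1 at a time. Of the members, 1 was higher by the size rule, in place of 0, with a pseudocount of 0.1 (Idi1), with the count columns in place of FPKM (Idi1), with the highest row per symbol (Hmgcs1) and with totals equal outside the marker lists (Idi1). The count of lower members, 1, was 0 with a 2-fold rule, with totals equal outside the marker lists and with the GC and length trend removed. Their median difference, 0.08, was 0.19 with a minimum of 5 FPKM, which leaves out Sqle and Lss. That is a change of members, which counting error does not describe. Under the other alternatives run for it, the median was 0.08 to 0.15 and moved by less than the counting error. Among the other pathway genes, the 1 higher gene became 0 with a 2-fold rule and after correction for GC and length. The count of lower ones, 0, became 1 without a filter (Nceh1, listed at 0 FPKM in SML but with 22 fragments there and a count ratio of 0.767, 0.433 to 1.33) and 1 with the highest row per symbol (Insig2). Over all genes, higher genes numbered 847 with a pseudocount of 0.1, 883 with the count columns, 319 with a minimum of 5 FPKM, 66 with a 2-fold rule and 348 with the GC and length trend removed, against 538. Rows listed at 0 FPKM with a count above 0 numbered 1443 in SML and 274 in HFD control; their part in the lower genes without a filter was not tested. Lower genes numbered 1115 without a filter, 831 with a pseudocount of 0.1 and 818 with the count columns, against 567. They numbered 510 with the GC and length trend removed, 305 with a minimum of 5 FPKM and 194 with a 2-fold rule. With totals equal outside the marker lists, 729 genes were higher and 456 lower. With totals equal outside the 50 highest genes, 658 were higher and 488 lower. The numbers were 712 and 693 with the highest row per symbol, and 561 and 545 with the median of genes of at least 10 FPKM set to 0. The shares among all genes thus depended on the scaling. Of the values of single named genes under an alternative, 226 stayed within counting error and 21 did not. Fewer genes were kept under the stricter minimum; other causes were not tested. No paired analysis was possible because each group has 1 library, and none could be left out. Depth limited Sqle most among the members.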

Other observations

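The rows of a symbol held different shares of its FPKM in the 2 libraries for some genes around the pathway. Lipa, the lysosomal lipase that frees cholesterol from its esters, had a main row at 56.1 FPKM in SML and 49.4 FPKM in HFD control and a second at 0.01 FPKM in SML and 8.74 FPKM in HFD control, with a summed count ratio of 0.964 (0.903 to 1.03). Insig2 had a row at 8.08 FPKM from 169 fragments in SML that was listed at 0 with 0 fragments in HFD control, and another at 2.64 FPKM in SML and 7.74 FPKM in HFD control, with a summed ratio of 1.22 (1.02 to 1.46). The row of Insig2 that held most of its FPKM was thus not the same in both libraries, whereas in Lipa it was. In Fdps the minor row took 8.32% of the FPKM in SML and 3.65% in HFD control. These genes were chosen after their values were seen, and how the authors' software divided fragments between rows was not tested.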
